A study of Mus musculus with 3 samples.

Results

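Collagens are the triple-helical proteins that form most of the extracellular matrix of the heart, and each collagen gene encodes 1 chain of such a helix. The members described here were all genes whose symbol is Col, a number, the letter a and a number, and that had at least 20 UMIs over the 3 libraries (a UMI, unique molecular identifier, marks 1 captured transcript). Of 27998 genes in the matrices, 44 had such a symbol and 33 of these reached 20 UMIs. The 33 chains comprised 9 fibrillar, 6 basement membrane and 18 other chains. Col20a1 and Col25a1 were just inside the limit with 20 UMIs each, and Col9a3, with 16 UMIs, was just outside it. Of the 11 chains below the limit, 3 had 0 UMIs (Col10a1, Col6a4 and Col6a5). A total of 23 members had at least 100 UMIs, from 100 for Col13a1 to 13940 for Col3a1.

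Fibrillar collagens, with type I and type III as the main cardiac forms and type V as a partner that limits fibril width, build the fibers that bear load between muscle bundles, and fibroblasts (FBs) are known as their main source. Basement membrane collagen, type IV, forms the sheet under endothelial cells (ECs) and around muscle and mural cells. The remaining families include type VI, which forms beaded filaments beside cells, the fibril-associated chains (FACITs, among them Col12a1, Col14a1 and Col16a1), type VIII, which forms networks in vessel walls, and the multiplexins Col15a1 and Col18a1, whose C-terminal fragments are restin and endostatin. All chains need hydroxylation, folding by chaperones and, for the fibrillar types, removal of propeptides before they assemble.

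Non-cardiomyocytes of mouse ventricles were measured by droplet-based scRNA-seq in 3 phases of pressure overload by transverse aortic constriction (TAC), a ligature that narrows the aortic arch. The libraries came from a healthy heart (TAC 0 weeks, labelled Control), from adaptive hypertrophy (TAC 2 weeks) and from heart failure (TAC 12 weeks), with 1 library per phase. All mice were wild-type, and the study's methods give male C57BL/6J JCL mice operated at 8 weeks of age, with the atria removed and the ventricles digested with type II collagenase. How many hearts entered a library is not given in the sources used here, and since each phase is 1 library, phase and library cannot be told apart and no test was possible.

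Levels are in CPM, here UMIs of a chain per 1000000 UMIs of its cell class, and since the libraries count the 3′ ends of transcripts, they were not scaled by transcript length. Brackets give exact 95% intervals that cover counting error only. Cells were put into classes by summed UMIs of 5 marker lists that hold no collagen, which gave 1255, 90 and 191 FBs at 0, 2 and 12 weeks and 1053, 1738 and 288 ECs. The libraries held 3892, 2231 and 792 cells and 12287823, 4465929 and 1712728 UMIs, with medians of 2589, 1495 and 1434 UMIs per cell, and FBs had medians of 2978, 1967 and 2462. The FBs at 2 weeks, 4.03% of their library's cells, also had a median mitochondrial share of 7.23% of UMIs, against 2.61% at 0 and 4.66% at 12 weeks. Without the 40, 33 and 31 FBs above 10%, the fibrillar ratio at 2 weeks given below was 2.41 in place of 2.42. FB markers summed to 21625, 15898 and 22630 CPM in FBs and to 302, 55.4 and 449 CPM in ECs. The libraries shared 5, 1 and 3 barcodes pairwise, and no doublet caller was run.

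Promoter windows, from 250 bases before to 50 bases after the transcription start, were taken from RefSeq on GRCm38.p6 for 27 of the 33 chains. Col1a1, Col4a3, Col5a2, Col12a1, Col14a1 and Col26a1 had none in that table. The windows shown are those of the most abundant fibrillar chains with a window, and of the type IV pair that led in ECs beside a type IV chain that led in FBs. Capitals mark CCAAT or its reverse ATTGG, the GC box core GGGCGG or its reverse CCGCCC, and TATAAA or its reverse TTTATA, and no match overlaps another in these windows.
Col1a2: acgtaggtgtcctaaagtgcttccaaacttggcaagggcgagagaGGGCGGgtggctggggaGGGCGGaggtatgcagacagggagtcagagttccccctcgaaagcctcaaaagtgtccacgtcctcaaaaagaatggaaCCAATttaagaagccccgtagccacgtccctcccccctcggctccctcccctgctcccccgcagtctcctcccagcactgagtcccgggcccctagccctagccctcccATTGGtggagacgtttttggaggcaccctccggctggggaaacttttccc
Col3a1: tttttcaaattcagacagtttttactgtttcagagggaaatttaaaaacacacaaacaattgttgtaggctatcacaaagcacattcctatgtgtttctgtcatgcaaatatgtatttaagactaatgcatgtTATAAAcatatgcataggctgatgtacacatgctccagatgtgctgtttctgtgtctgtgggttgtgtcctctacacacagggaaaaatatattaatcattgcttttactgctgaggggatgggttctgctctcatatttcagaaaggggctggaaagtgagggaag
Col4a1: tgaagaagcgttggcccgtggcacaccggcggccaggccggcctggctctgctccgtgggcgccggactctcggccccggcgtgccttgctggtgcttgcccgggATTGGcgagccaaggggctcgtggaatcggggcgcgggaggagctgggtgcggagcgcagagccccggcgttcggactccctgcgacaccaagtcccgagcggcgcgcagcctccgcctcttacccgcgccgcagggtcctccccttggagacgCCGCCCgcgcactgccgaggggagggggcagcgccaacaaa
Col4a2: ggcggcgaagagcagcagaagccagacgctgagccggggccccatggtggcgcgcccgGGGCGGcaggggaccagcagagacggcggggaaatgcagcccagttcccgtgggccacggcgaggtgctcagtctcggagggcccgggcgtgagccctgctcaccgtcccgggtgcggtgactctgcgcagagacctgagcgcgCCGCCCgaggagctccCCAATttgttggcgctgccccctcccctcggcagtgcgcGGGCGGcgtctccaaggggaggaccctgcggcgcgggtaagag
Col4a4: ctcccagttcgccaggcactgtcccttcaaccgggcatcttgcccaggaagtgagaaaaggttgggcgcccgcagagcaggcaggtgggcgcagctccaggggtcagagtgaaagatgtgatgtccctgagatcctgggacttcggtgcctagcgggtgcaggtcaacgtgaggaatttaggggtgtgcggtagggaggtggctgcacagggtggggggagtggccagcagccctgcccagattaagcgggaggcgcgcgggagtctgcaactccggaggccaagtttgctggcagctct
These lie at chr6:4505368-4505667 (plus strand), chr1:45311288-45311587 (plus), chr8:11312777-11313076 (minus), chr8:11312555-11312854 (plus) and chr1:82586800-82587099 (minus). Col4a1 and Col4a2 stand head to head with starts 21 bases apart, at 11312826 on the minus and at 11312805 on the plus strand. The first bases of the genes thus overlap. Their windows share 78 bases and hold 74.0% and 73.7% GC. Col4a4 and Col4a3 also stand head to head but do not overlap, with starts 72 bases apart in the GENCODE M21 annotation. Those of Col4a6 and Col4a5 are 1309 bases apart. The Col3a1 window held TATAAA, no CCAAT and no GGGCGG and had 37.7% GC, whereas that of Col1a2 had 61.0% GC. Among the 27 chains, CCAAT was found in 9, GGGCGG in 19 and TATAAA in 3, beside 37.4%, 35.7% and 13.6% of all 32851 windows. A chain counted when any of its windows held the motif, and Col6a2 and Col18a1 had more than a single window. The counts are thus of genes and the percents of windows, and these matches describe letters only.

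Most chains were led by FBs. Summed over the 3 libraries, 20 of the 33 chains had their highest CPM in FBs, 9 in neural cells and 4 in ECs (Col4a1, Col4a2, Col13a1 and Col25a1), and none in mural or blood cells. These sums pool libraries in which the classes differ in size, and several of the neural leads rest on a few UMIs, given with that class. Collagen chains took 1.05%, 2.34% and 0.767% of all FB UMIs at 0, 2 and 12 weeks. Of the fibrillar UMIs of a library, 92.9%, 86.6% and 92.7% lay in FBs. Basement membrane UMIs were divided, with 44.8%, 90.8% and 50.2% in ECs and 37.7%, 4.53% and 36.6% in FBs, and the shares at 2 weeks came with 1738 ECs and 90 FBs in that library.

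**Figure D1:**
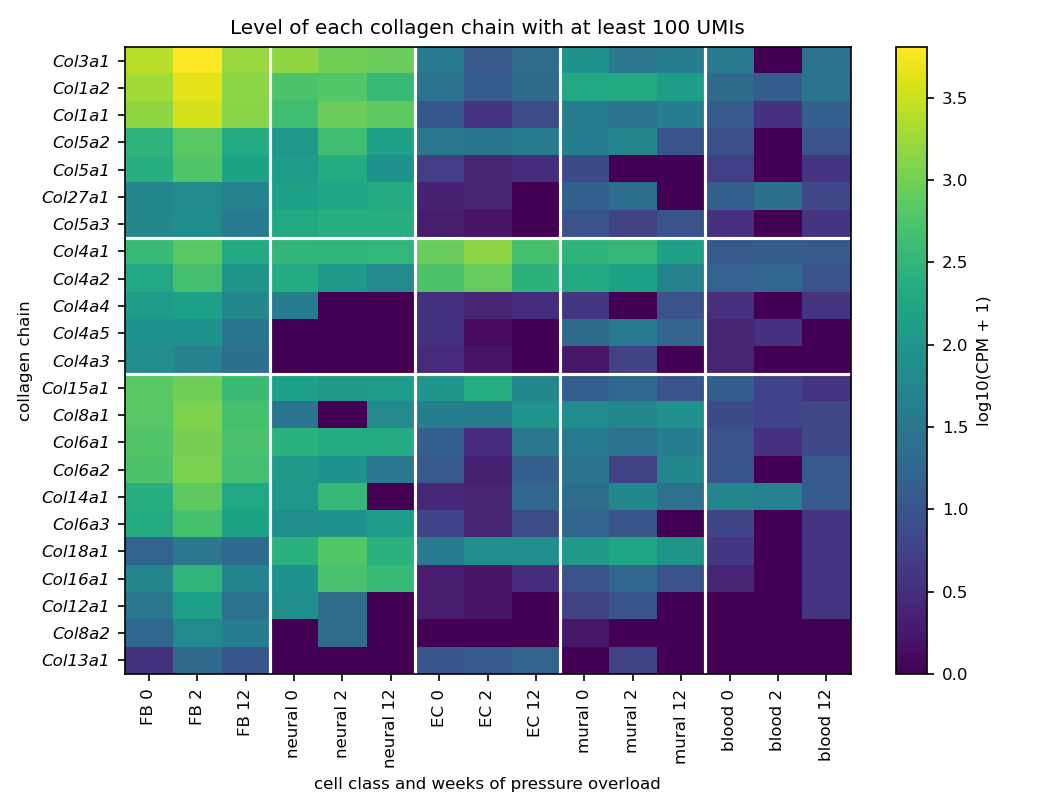
Level of each collagen chain with at least 100 UMIs (rows) by cell class and phase (columns), as log10 of CPM + 1. Col3a1 (2493, 6408 and 1648 CPM) is highest in FBs, with 59.6%, 15.7% and 52.8% of that level in neural cells. Col4a1 and Col4a2 stand out in ECs (828, 1375 and 507 CPM for Col4a1).

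Fibrillar chains in FBs were highest in the 2-week library and lowest in the 12-week library. Their sum was 6553 CPM [6476–6632] at 0 weeks, 15874 CPM [15389–16371] at 2 weeks and 4849 CPM [4678–5025] at 12 weeks. This sum was 2.42-fold [2.343–2.504] of the healthy level at 2 weeks and 0.740-fold [0.712–0.768] at 12 weeks. The intervals of the 3 phases did not overlap.

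Col3a1, the chain of type III collagen, was the most abundant, with 10371, 1634 and 1031 UMIs in FBs, which are 2493, 6408 and 1648 CPM. It ranked 45th, 11th and 81st among all genes by UMIs in FBs. Col1a2 was at 1917, 4522 and 1415 CPM, and Col1a1 at 1487, 3529 and 1329 CPM, both chains of type I collagen. The 3 chains lay within a narrow span of ratios at 2 weeks, 2.57 [2.44–2.71] for Col3a1, 2.36 [2.22–2.51] for Col1a2 and 2.37 [2.21–2.55] for Col1a1. At 12 weeks they spread, since Col1a1 was at 0.893 [0.830–0.961] of its healthy level and Col3a1 at 0.661 [0.620–0.705].

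The type V chains were about an order of magnitude lower in CPM. Col5a2 was at 285, 678 and 211 CPM and Col5a1 at 248, 600 and 155 CPM, with ratios at 2 weeks of 2.38 [2.02–2.80] and 2.42 [2.03–2.87]. Col5a3, the third chain of type V, went from 57.7 to 70.6 and 36.8 CPM, and its ratio at 2 weeks of 1.22 [0.713–1.98] had an interval that included 1 and lay below that of Col5a1. Col27a1, a fibrillar chain known from cartilage, was at 52.9, 62.7 and 49.6 CPM, with both ratios inside counting error of 1 (1.19 [0.667–1.97] and 0.937 [0.622–1.37]). The type XI chains Col11a1 and Col11a2 were rare, with 31, 1 and 2 and with 25, 0 and 1 UMIs. Over the alternative settings the 2-week ratio lay between 0.996 and 1.87 for Col5a3 and between 1.12 and 2.13 for Col27a1. The 12-week ratio of Col27a1 lay between 0.774 and 1.57. The highest of each came from FBs without a UMI of another class's markers, so that these ratios depended on the setting. By CPM, the higher fibrillar sum at 2 weeks lay mainly in the chains of types I, III and V other than Col5a3.

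**Figure D2:**
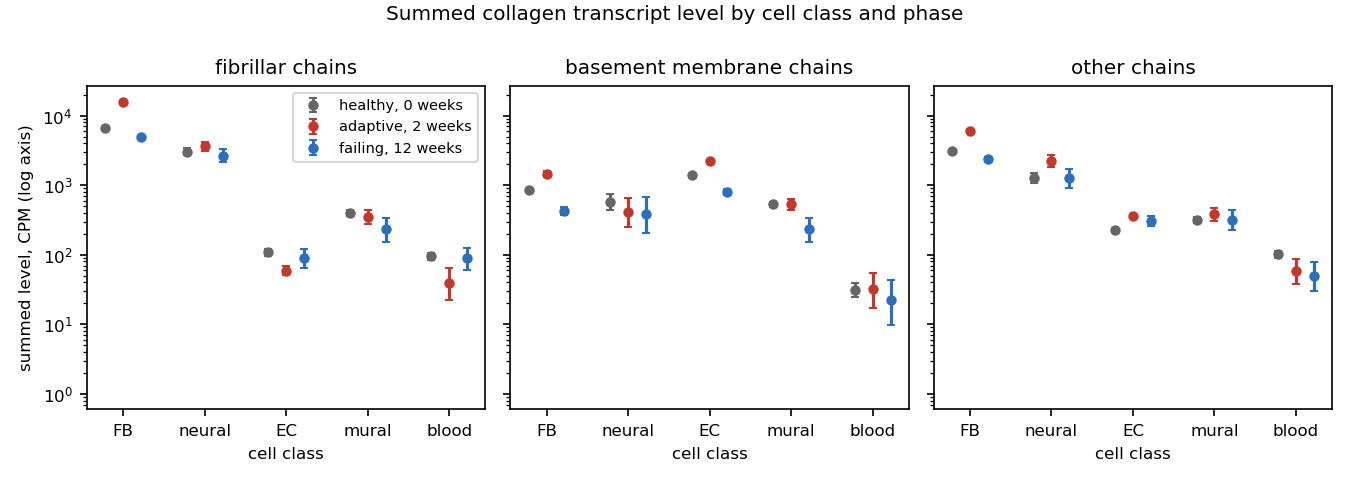
Summed CPM of fibrillar, basement membrane and other collagen chains (panels) by phase and cell class on a log axis, with exact 95% Poisson intervals. In FBs all 3 sums are highest at 2 weeks (15874, 1447 and 6086 CPM) and lowest at 12 weeks (4849, 424 and 2395 CPM).

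Basement membrane chains were highest at 2 weeks in ECs and in FBs, and lowest at 12 weeks in both. In ECs their sum was 1392 CPM [1351–1435], 2203 CPM [2153–2253] and 789 CPM [710–875], ratios of 1.58 [1.52–1.64] and 0.567 [0.508–0.631]. In FBs it was 865, 1447 and 424 CPM, ratios of 1.67 [1.4997–1.864] and 0.490 [0.431–0.555]. In mural cells it was 530, 532 and 232 CPM, so that the level at 2 weeks stood at 1.00 [0.818–1.22] of the healthy one and that at 12 weeks at 0.438 [0.289–0.639]. EC markers stood at 1308, 1527 and 921 CPM in mural cells, against 5719, 6840 and 7125 CPM in ECs, and their part in the mural values was not tested.

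The ubiquitous type IV chains made up nearly all of this in ECs. Col4a1 was at 828, 1375 and 507 CPM in ECs (1.66 [1.58–1.74] and 0.612 [0.533–0.700]), and Col4a2 at 556, 825 and 280 CPM (1.48 [1.40–1.58] and 0.503 [0.417–0.602]). In FBs Col4a1 was at 366, 671 and 206 CPM and Col4a2 at 193, 486 and 92.7 CPM, with ratios at 2 weeks of 1.83 [1.56–2.15] and 2.51 [2.06–3.04]. At all 3 phases both chains were higher in ECs than in FBs.

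The other type IV chains, which form the kidney, lung and inner ear networks altered in Alport syndrome (Col4a3, Col4a4 and Col4a5), were found in FBs. Col4a4 had 526, 36 and 35 UMIs in FBs, which are 126, 141 and 56.0 CPM. Col4a5 was at 87.97, 90.2 and 28.8 CPM, and Col4a3 at 75.2, 47.1 and 24.0 CPM. Their ratios at 2 weeks had intervals that included 1 (1.12 [0.774–1.57], 1.03 [0.642–1.56] and 0.626 [0.320–1.11]). All 3 were lower at 12 weeks, at 0.443 [0.305–0.624], 0.327 [0.192–0.524] and 0.319 [0.176–0.534] of the healthy level. Col4a3 had 313, 12 and 15 UMIs in FBs beside 6, 2 and 0 in ECs and 1, 1 and 0 in mural cells. In FBs without a UMI of another class's markers it was at 0.0895 and Col4a5 at 0.551 of the healthy level at 12 weeks. Those FBs held 1596476 UMIs at 0 weeks and 148688 at 12 weeks, so that these values rest on few UMIs and have no interval here. Col4a6 was rare, with 64, 3 and 10 UMIs in FBs.

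Among the other chains, the FACITs had the largest ratio at 2 weeks of the families with at least 100 UMIs in FBs there. Summed over 5 chains they were at 329, 1196 and 275 CPM, ratios of 3.63 [3.198–4.115] and 0.835 [0.708–0.979]. Col16a1 had 219, 79 and 32 UMIs in FBs, which are 52.6, 310 and 51.2 CPM, with a ratio of 5.89 [4.49–7.65] at 2 weeks and of 0.972 [0.649–1.41] at 12 weeks. Col12a1, found on fibrils of tissues under tension, was at 32.4, 141 and 25.6 CPM (4.35 [2.93–6.32] at 2 weeks). Col14a1 was at 234, 733 and 187 CPM (3.14 [2.67–3.67] at 2 weeks). At 2 weeks the interval of Col16a1 lay above those of Col1a1, Col1a2 and Col3a1, and its ratio was between 4.34 and 7.33 over the alternative settings. The interval of Col12a1 also lay above those 3, but in FBs without a UMI of another class's markers its ratio was 2.41, and the order did not hold there. In those FBs Col14a1 was at 1.34, Col16a1 at 1.57 and Col12a1 at 1.95 of the healthy level at 12 weeks, and as a mean over cells Col14a1 was at 1.26 and Col16a1 at 1.59, so that the direction at 12 weeks depended on the setting.

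Type VI chains, which share 1 heterotrimer, had like ratios. Col6a1 was at 602, 1063 and 520 CPM in FBs, Col6a2 at 549, 1094 and 468 CPM and Col6a3 at 218, 494 and 153 CPM. Their ratios at 2 weeks were 1.77 [1.55–2.00], 1.99 [1.75–2.26] and 2.26 [1.86–2.73], with overlapping intervals. At 12 weeks they were 0.863, 0.853 and 0.702, but 1.02, 1.03 and 1.28 in FBs without a UMI of another class's markers. Col6a6, a chain built like Col6a3, had 67 UMIs in FBs at 0 weeks, 0 at 2 weeks and 7 at 12 weeks. Against a floor of 3 UMIs in the FBs of the 2-week library it was at least 1.37-fold lower there than at 0 weeks.

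Col8a1, the main chain of type VIII, was at 646, 1196 and 500 CPM in FBs (1.85 [1.64–2.08] and 0.774 [0.687–0.871]), and at 0.479 at 12 weeks in FBs without a UMI of another class's markers. Its partner Col8a2 was at 18.0, 62.7 and 41.6 CPM, the only chain that was past 2-fold higher at both phases (3.48 [1.89–6.03] and 2.31 [1.42–3.65]). At 12 weeks it was 1.24 after thinning each cell to 1000 UMIs, 1.26 in FBs without a UMI of another class's markers and 1.89 as a mean over cells, so that this call did not hold there. Col15a1 was at 668, 929 and 395 CPM in FBs (1.39 [1.21–1.59] and 0.591 [0.517–0.673]), a smaller ratio at 2 weeks than those of the type I and III chains. Col18a1 had only 65, 8 and 12 UMIs in FBs. Col9a2 with 41, 3 and 2 UMIs and Col26a1 with 20, 0 and 1 UMIs were the remaining chains with 20 or more UMIs in the FBs compared. Col13a1 had 22 UMIs in FBs over all libraries, but fewer than 20 in either comparison.

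**Figure D3:**
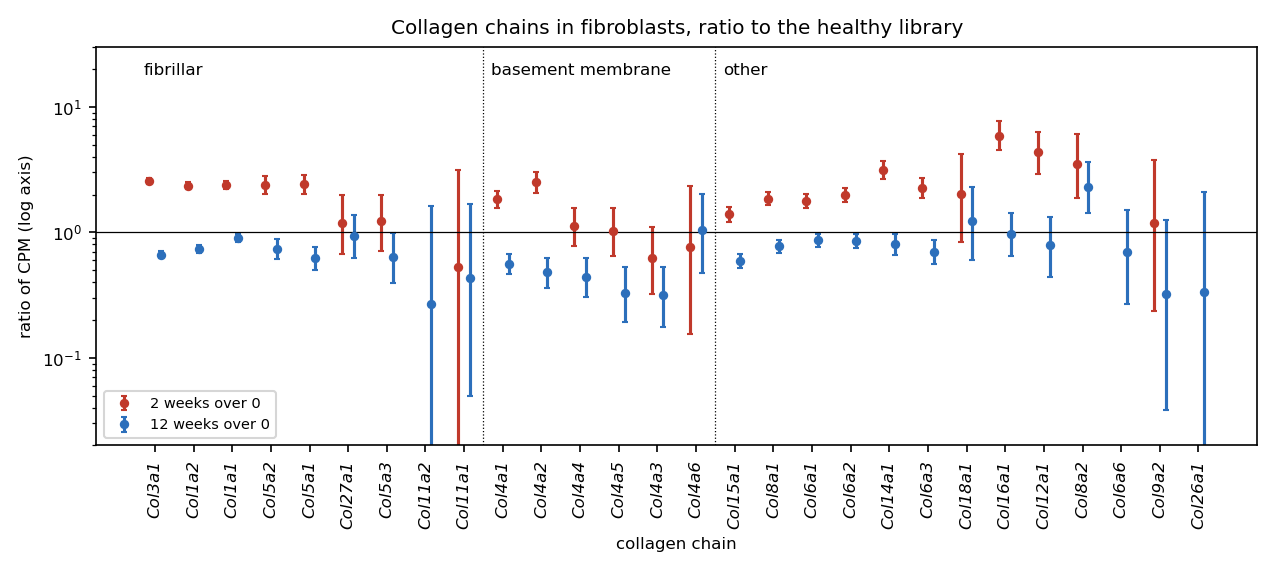
Ratio of CPM in FBs at 2 weeks and at 12 weeks over 0 weeks for each collagen chain with at least 20 UMIs in the FBs compared, on a log axis with exact 95% intervals. Col11a2, Col6a6 and Col26a1 had 0 UMIs at 2 weeks and have no point there. Col16a1 (5.89), Col12a1 (4.35) and Col8a2 (3.48) are the highest at 2 weeks, and all but 3 chains lie below 1 at 12 weeks.

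Counted over chains, 28 of the 33 had at least 20 UMIs in FBs over 0 and 2 weeks together, and 22 of these were higher at 2 weeks. Past 2-fold higher on the CPM + 1 scale were 11 chains, 39.3%, beside 8.75% of all genes counted in the same way. These were Col3a1, Col1a2, Col1a1, Col5a1, Col5a2, Col4a2, Col14a1, Col16a1, Col12a1, Col6a3 and Col8a2. Past 2-fold lower were 3 chains, beside 13.6% of all genes, and these were Col6a6, Col11a2 and Col26a1, all with 0 UMIs at 2 weeks. For Col11a2 and Col26a1 the healthy levels, 6.01 and 4.81 CPM, lay below the floor of 11.8 CPM that the 90 FBs allow, so that no fold can be given. The median log2 ratio on that scale was 0.88 over the 28 chains and −0.03 over all genes, and it was 0.92 over 26 chains with Col6a6 at its bound and the other 2 left out. By group, the medians were 1.24 for 9 fibrillar, 0.10 for 6 basement membrane and 0.96 for 13 other chains.

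At 12 weeks 25 of 28 chains were below their healthy level in FBs. Past 2-fold higher was Col8a2 alone, beside 5.58% of all genes. Past 2-fold lower were 8 chains, beside 6.36% of all genes, namely Col4a2, Col4a3, Col4a4, Col4a5, Col9a2, Col11a1, Col11a2 and Col26a1. The last 4 rested on 1 or 2 UMIs at 12 weeks each. The median log2 ratio was −0.50 over the chains and 0.01 over all genes, with −0.60 for fibrillar, −1.11 for basement membrane and −0.33 for other chains. In FBs the fibrillar ratio was 1.45 times the basement membrane ratio at 2 weeks and 1.51 times at 12 weeks. At 2 weeks this gap was 1.14 in FBs without a UMI of another class's markers and 1.73 after thinning to 1000 UMIs. At 12 weeks it was 1.60 and 1.38 in these settings.

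In ECs the fibrillar sum was lower in the 2-week library than in the healthy one. It was 108 CPM [96.6–120], 59.2 CPM [51.3–68.1] and 88.9 CPM [63.8–121], a ratio of 0.549 [0.458–0.657] at 2 weeks. The FB marker list was also lower at 2 weeks, at 302, 55.4 and 449 CPM in ECs and at 269, 46.8 and 385 CPM in blood cells, and its part in the fibrillar value was not tested. Col3a1 in ECs was at 34.5, 10.4 and 21.7 CPM, and Col1a1 at 10.1, 2.68 and 6.51 CPM. Measured against FBs of the same library, Col1a1 in ECs stood at 0.679% and Col3a1 at 1.39% of the FB level at 0 weeks, where FB markers stood between 0.736% (Tcf21) and 2.92% (Pdgfra), with Dcn at 1.27%. The type I and III chains in ECs were thus within or below the range of FB markers there, and the interval of Col1a1 [0.461–0.965%] included the value of Tcf21.

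Other chains stood above the FB markers. Col5a2 in ECs was at 10.9% of its FB level at 0 weeks, Col8a1 at 6.55% and Col15a1 at 14.5%, and Col4a1, Col4a2 and Col18a1 at 226%, 287% and 225%. Col15a1 in ECs was at 97.1, 227 and 56.4 CPM, ratios of 2.34 [2.04–2.68] and 0.581 [0.373–0.868]. Col18a1 was at 35.2, 72.3 and 73.7 CPM, 2.06 [1.63–2.60] and 2.09 [1.38–3.10]. Col8a1 was at 42.4, 38.1 and 93.2 CPM in ECs, with a ratio at 12 weeks of 2.20 [1.52–3.13]. In the same ECs the endocardial marker list stood at 286, 119 and 707 CPM, the arterial list at 139, 334 and 423 CPM and the capillary list at 1614, 1939 and 1494 CPM, and their part in the Col8a1 and Col18a1 values was not tested. Col13a1, a transmembrane collagen, was led by ECs with 27, 37 and 7 UMIs and had ratios inside counting error of 1.

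Of 14 chains with at least 20 UMIs in ECs at 2 weeks, 2 were past 2-fold higher (Col15a1 and Col18a1), beside 3.33% of all genes. Past 2-fold lower were 7 (Col3a1, Col1a2, Col1a1, Col6a1, Col6a2, Col6a3 and Col28a1), beside 4.57% of all genes, and the FB marker list in ECs was at 55.4 against 302 CPM in the same libraries. At 12 weeks 3 of 13 chains were past 2-fold higher (Col8a1, Col6a1 and Col18a1), beside 8.44% of all genes, and 1 was past 2-fold lower, beside 7.61%. The latter, Col28a1, had 20 UMIs at 0 weeks and 0 at 12 weeks, and its healthy level of 6.52 CPM was at the 12-week floor of 6.50 CPM. The median log2 ratio at 12 weeks was −0.40 and came to 0.00 with Col28a1 at its bound.

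**Figure D4:**
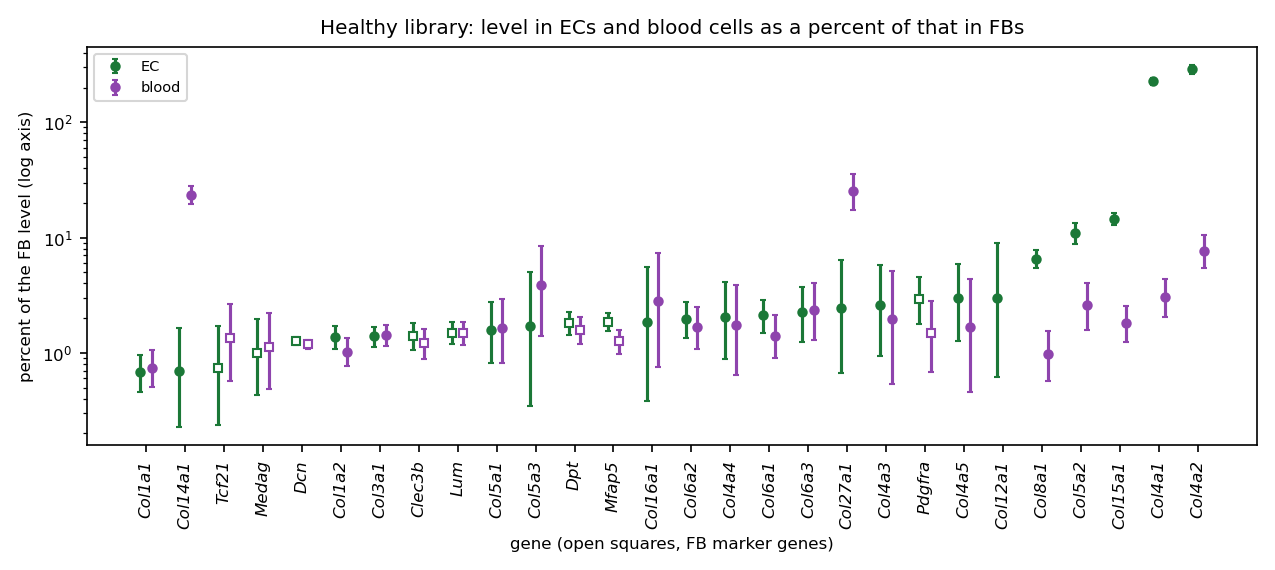
Level of a chain in ECs and blood cells as a percent of its level in FBs in the healthy library, on a log axis. Shown are genes with at least 100 FB UMIs at 0 weeks, with FB markers as open squares and values of 0 left out. In ECs the value of Col1a1 (0.679% [0.461–0.965]) lies below the FB markers at 0 weeks, but its interval includes the value of Tcf21. Col5a2 (10.9%), Col15a1 (14.5%) and Col4a2 (287%) lie above the FB markers.

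Among the EC subtypes set by a further marker gate, the type IV chains were highest in capillary ECs. The basement membrane sum was 1600, 2288 and 1076 CPM in 690, 1041 and 128 capillary ECs, 416, 1302 and 288 CPM in 30, 104 and 20 arterial ECs, and 192, 876 and 252 CPM in 48, 14 and 24 endocardial ECs. In each of these gates the 2-week library was the highest. The 258, 569 and 111 ECs that no subtype gate claimed were at 1132, 2264 [2165–2367] and 790 CPM, at 2 weeks close to the capillary ECs [2226–2352]. Lymphatic ECs, 27, 10 and 5 cells, were at 566, 662 and 0 CPM. The gates with few cells differed in other chains. At 0 weeks Col8a1 was at 282 CPM in arterial and 240 CPM in endocardial ECs against 13.7 CPM in capillary ECs, Col5a2 at 208 CPM in endocardial against 10.5 CPM in capillary ECs, and Col18a1 at 174 CPM in arterial against 22.9 CPM in capillary ECs. The endocardial list itself stood at 254, 58.8 and 516 CPM in FBs, and the arterial list at 446, 764 and 523 CPM in mural cells. Whether FB or mural transcripts had a part in these contrasts was not tested. Col15a1 was at 117, 252 and 79.9 CPM in capillary ECs.

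Mural cells held a mixed set. Their fibrillar sum was 399, 345 and 232 CPM, of which Col1a2 made up 195, 205 and 133 CPM. Col1a2 stood at 10.2% of its FB level in mural cells at 0 weeks, whereas Col1a1 stood at 2.69%. Col18a1 was at 115, 173 and 91.3 CPM, which at 0 weeks was 739% of the FB level. Pericytes, 29 cells at 0 weeks, had 1184 CPM [928–1489] of basement membrane chains against 488 CPM [450–529] in 328 smooth muscle cells.

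Neural cells, gated by Schwann cell markers all 8 of which were detected in them, had the highest pooled CPM of 9 chains on only 49, 24 and 13 cells. Col18a1 was at 268, 633 and 270 CPM there, Col5a3 at 201, 240 and 240 CPM, Col27a1 at 144, 175 and 210 CPM and Col16a1 at 86.2, 524 and 360 CPM. Other leads of this class rested on few UMIs. Col20a1 had 4, 4 and 3 UMIs in neural cells and Col28a1 5, 3 and 0, and Col11a2 and Col23a1 had 1 UMI each. Col12a1 had 8, 1 and 0 UMIs there, which are 76.6, 21.8 and 0 CPM, so that at 2 and 12 weeks it stood higher in FBs (141 and 25.6 CPM). The fibrillar sum in neural cells was 3036, 3601 and 2642 CPM, beside 6553, 15874 and 4849 CPM in FBs. Col3a1 stood there at 59.6%, 15.7% and 52.8% of its FB level. The FB marker list stood at 297, 21.8 and 360 CPM in this class, and its part in these values was not tested.

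Blood cells served as the class that should lack these chains. FB markers stood there at 1.13% to 1.57% of their FB level at 0 weeks. Col14a1 stood at 23.4% with 148 UMIs and Col27a1 at 25.1% with 36 UMIs. A Col14a1 UMI was found in 13.0% [10.9–15.3] of 937 blood cells at 0 weeks, in 7.45% of 188 at 2 weeks and in 2.52% of 159 at 12 weeks, and after thinning to 1000 UMIs per cell in 5.34%, 2.78% and 2.78%. The blood class pools several cell types, and their mix differed between libraries. Of its markers, Cd79a stood at 50.6, 7.39 and 869 CPM, Cd3e at 2.96, 0 and 120 CPM and Fcer1g at 2652, 2477 and 1388 CPM. The part of this mix in the Col14a1 shares was not tested. Col3a1 had 0 UMIs in blood cells at 2 weeks, which allows up to 7.39 CPM, beside 1634 UMIs in FBs.

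The share of cells with a UMI was taken for the leading fibrillar and basement membrane chains. Col3a1 was found in 94.7%, 91.1% and 84.8% of FBs, and after thinning in 81.5%, 88.1% and 72.4%. In blood cells, with median depths of 2617, 1575 and 1616 UMIs, it was found in 9.39%, 0% (upper bound 1.94%) and 5.66%. Col4a1 was found in 70.7%, 75.9% and 45.5% of ECs, whose medians were 2210, 1516 and 1342 UMIs, and after thinning in 48.4%, 65.3% and 35.4%. In blood cells it was found in 2.99%, 2.13% and 2.52%. The thinned shares were highest at 2 weeks for both chains, with overlapping intervals at 0 and 2 weeks for Col3a1.

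Chains that assemble into 1 molecule were compared by their UMIs. The ratio of Col1a1 to Col1a2 UMIs was 0.776 [0.750–0.802] at 0 weeks and 0.781 [0.715–0.852] at 2 weeks, and 0.939 [0.853–1.03] at 12 weeks, where its interval lay above the healthy one. With all cells thinned to 1000 UMIs it was 0.846 at 0 weeks and 0.826 at 12 weeks, so that this order did not hold. In mural cells the same ratio was 0.205 [0.150–0.277] at 0 weeks. Col5a1 to Col5a2 was 0.872, 0.884 and 0.735 in FBs, but 0.126 [0.0631–0.231] in ECs and 0.140 [0.0578–0.296] in mural cells at 0 weeks. Col6a1 to Col6a2 was 1.10, 0.971 and 1.11 in FBs. Col4a1 to Col4a2 was 1.49 [1.40–1.58], 1.67 [1.59–1.75] and 1.81 [1.46–2.27] in ECs and 1.89 [1.74–2.06], 1.38 [1.09–1.75] and 2.22 [1.62–3.09] in FBs. Col8a2 to Col8a1 was 0.0279 [0.0219–0.0351], 0.0525 [0.0296–0.0866] and 0.0831 [0.0534–0.124] in FBs, with the 12-week interval above the healthy one.

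Chains differed in how they were spread over FBs. At 0 weeks 20.9% of the FBs held 50% of the Col1a1 UMIs, 20.2% those of Col1a2, 20.1% those of Col6a1 and 17.6% those of Col3a1, close to the marker Dcn at 22.7%. For Col8a1 it was 7.57% of the FBs, and the 10% of cells with the most held 57.6% of its UMIs. At 12 weeks 4.71% of the FBs held 50% of the Col8a1 UMIs and the top 10% held 70.9%. Col8a1 UMIs were thus held by a smaller share of the FBs than those of the type I and III chains in each library, on fewer UMIs.

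FBs were also split by a UMI of Postn, the periostin gene known from activated FBs, after thinning each cell to 1000 UMIs, which gave 304, 45 and 48 FBs with and 951, 22 and 115 without it. The fibrillar sum was 1.30-fold [1.24–1.36], 1.54-fold [1.34–1.77] and 1.08-fold [0.932–1.25] in FBs with Postn over those without. Col8a1 was 3.24-fold [2.78–3.78], 3.42-fold [1.69–7.83] and 1.82-fold [1.03–3.15], Col5a2 1.52-fold at 0 weeks and Col12a1 2.84-fold [1.47–5.46] at 0 weeks. Col4a1 was lower in FBs with Postn at 0 weeks, at 0.736-fold [0.586–0.917]. Other type IV chains were higher there, with Col4a5 at 1.76-fold [1.17–2.61] and Col4a3 at 1.77-fold [1.16–2.68]. The basement membrane sum was at 1.10-fold [0.962–1.25] at 0 weeks. The fibrillar sum was higher at 2 weeks than at 0 weeks in both sets, 2.32-fold [2.142–2.503] with Postn and 1.96-fold [1.73–2.21] without. For the basement membrane sum it was 1.48-fold [1.13–1.93] with Postn and 1.16-fold [0.739–1.74] without, where the interval included 1.

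Genes that modify, fold, export, cleave or bind collagen gave a less uniform picture. Of 41 such genes in the files, 35 had at least 20 UMIs in FBs over 0 and 2 weeks, and 25 of these were higher and 10 lower at 2 weeks, with a median log2 ratio of 0.30. Past 2-fold higher were 6, beside the 8.75% of all genes, and past 2-fold lower was 1, beside 13.6%. The former were the lysyl hydroxylase Plod2 (77.6 and 173 CPM, 2.22 [1.58–3.05]), the prolyl 3-hydroxylases P3h1 (2.10 [1.34–3.17]) and P3h2 (2.30 [1.06–4.48]), the prolyl 4-hydroxylase subunit P4ha3 (3.26 [0.811–9.74], 20 and 4 UMIs), the COPII coat gene Sec24d (2.34 [1.504–3.519]) and the collagen uptake receptor Mrc2 (2.09 [1.60–2.70]). The latter was the ion channel gene Tmem38b, with 68 and 1 UMIs (0.240 [0.00599–1.38]). Serpinh1, the collagen chaperone HSP47, was at 1525, 1365 and 1114 CPM, so that it was not higher at 2 weeks (0.895 [0.801–0.997]). At 12 weeks 1 of the 35 genes was past 2-fold higher, P3h2 (2.62 [1.63–4.12]), and none was past 2-fold lower, beside 5.58% and 6.36% of all genes.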

How the data were processed

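Per the labels, single cells of 3 libraries were captured with a 3′ droplet kit (v2 chemistry). The authors counted UMIs per gene and cell with Cell Ranger (version 2.0.0 and build mm10 per the submitters' processing notes) and deposited raw counts, without normalization, as 1 matrix per library. The gene and barcode lists were read only to name rows and columns.

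A minimum of 200 detected genes excluded 8, 8 and 10 barcodes, so that 12287823, 4465929 and 1712728 UMIs entered the sums. A cell joined the class (EC, FB, mural, blood or neural) whose marker UMIs were highest when they were at least 3 and at least 70% of the UMIs of all 5 lists, and 227, 124 and 102 cells stayed unassigned. No collagen is a marker, and subtypes of ECs and mural cells used at least 2 UMIs and 70% of further lists. Counts were summed per class and library and given as CPM. Levels have exact Poisson, ratios conditional binomial and shares Clopper-Pearson intervals at 95%, for counting error only, and the floor of a count of 0 was 3 UMIs. Cells are not replicates, so no p-value was computed, and "past 2-fold" refers to CPM + 1 for genes with at least 20 UMIs in both groups together. Thinning drew 1000 UMIs per cell and left out shallower cells, which kept 1255, 67 and 163 FBs. Doublets were not called, and an alternative required 0 UMIs of other classes' markers.

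Every chain with at least 20 UMIs was named, chains with at least 100 UMIs were described by class and phase, and processing genes past 2-fold were named. Members and lists were chosen with earlier results of these data known. Of 45 listed processing symbols, 4 older names were absent. Scripts, checked on simulated data, used numpy 2.4.6 and scipy 1.17.1 under Python 3.11.15, and matplotlib 3.10.9 for figures. Positions come from GENCODE M21 (GRCm38), which located all 33 members, and promoter windows from RefSeq (GRCm38.p6).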

Additional observations from a re-analysis of the deposited data

Results flagged for a closer look

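The values in this section stood on opposite sides of the healthy level at 2 and at 12 weeks, beyond the counting intervals of both, and with 1 library per phase the difference between the 2 ratios was not tested. In FBs this held for all 3 group sums. Fibrillar chains were at 2.42 and 0.740 of the healthy level, basement membrane chains at 1.67 and 0.490, and other chains at 1.98 and 0.780. In ECs it held for basement membrane chains, at 1.58 and 0.567.

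Among single chains in FBs, the fibrillar members were Col3a1 (2.57 and 0.661), Col1a2 (2.36 and 0.738), Col1a1 (2.37 and 0.893), Col5a2 (2.38 and 0.742) and Col5a1 (2.42 and 0.625). The type IV members were Col4a1 (1.83 and 0.563) and Col4a2 (2.51 and 0.479). The others were Col15a1 (1.39 and 0.591), Col8a1 (1.85 and 0.774), Col6a1 (1.77 and 0.863), Col6a2 (1.99 and 0.853), Col6a3 (2.26 and 0.702) and Col14a1 (3.14 and 0.800). In FBs without a UMI of another class's markers the 12-week ratios of Col6a1, Col6a2, Col6a3 and Col14a1 were 1.02, 1.03, 1.28 and 1.34, and as a mean over cells that of Col14a1 was 1.26, so that these 4 chains did not keep their side of the healthy level at 12 weeks.

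In ECs the chains were Col4a1 (1.66 and 0.612), Col4a2 (1.48 and 0.503) and Col15a1 (2.34 and 0.581). Col6a1 in ECs had the opposite order, 0.164 at 2 weeks and 2.56 at 12 weeks, on 39, 7 and 15 UMIs, and the FB marker list in ECs was at 302, 55.4 and 449 CPM in the same libraries.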

How the results depend on the processing

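No paired analysis was possible because each phase has 1 library, and for the same reason no library could be left out. In FBs the fibrillar ratio lay between 2.28 and 2.49 at 2 weeks and between 0.719 and 0.834 at 12 weeks over the alternatives, the basement membrane ratio between 1.44 and 2.16 and between 0.476 and 0.548, and the ratio of other chains between 1.87 and 2.30 and between 0.758 and 0.878. The basement membrane ratio in ECs lay between 1.49 and 1.79 and between 0.493 and 0.824. Of 180 group ratios under an alternative, 153 moved by less than their counting interval and 27 by more, and of 560 ratios of single chains in FBs 502 and 52, while 6 turned to the other side of 1 from a ratio past 2-fold or with an interval that excluded 1. Of the 56 single-chain ratios, 17 crossed 1 under at least 1 alternative, 12 of them among the 44 of chains with at least 100 UMIs. The mural basement membrane ratio at 2 weeks and the mural ratio of other chains at 12 weeks lay on the main side of 1 in 5 of 10 alternatives each. The cause of each move was not tested.

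With 0 UMIs of the other classes' markers in a cell, ratios in FBs were 0.834 for fibrillar chains at 12 weeks, 2.16 for basement membrane chains at 2 weeks, and 2.30 and 0.878 for other chains. Col6a1, Col6a2, Col6a3 and Col14a1 in FBs at 12 weeks turned to 1.02, 1.03, 1.28 and 1.34. In ECs basement membrane chains were at 1.71 and 0.824. In mural cells fibrillar chains were at 0.506 and 0.973, basement membrane chains at 0.680 and 0, and other chains at 0.481 at 2 weeks. Those mural cells held 162076, 36833 and 13398 UMIs, so that the 0 stands for no UMI found in a small total. Col1a1 to Col1a2 was then 0.851 in FBs at 0 weeks, Col4a1 to Col4a2 was 3.25 in FBs and 1.36 in ECs at 12 weeks, and Col5a1 to Col5a2 was 1 in FBs at 12 weeks. As a mean over cells, the fibrillar ratios in FBs were 2.28 and 0.795, that of mural cells at 12 weeks 0.887, basement membrane ratios in ECs 1.79 and 0.715, other chains in FBs at 12 weeks 0.831, and Col14a1 there turned to 1.26. Col1a1 to Col1a2 in FBs was 0.859 at 0 and 0.806 at 12 weeks, and Col5a1 to Col5a2 0.962 at 0 and 1.22 at 2 weeks.

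With median-of-ratios size factors, fibrillar and other chains in FBs were at 2.28 and 1.87 at 2 weeks, and basement membrane chains in ECs at 0.493 at 12 weeks. After thinning to 1000 UMIs, basement membrane ratios were 1.44 in FBs at 2 weeks, 1.68 and 0.645 in ECs, and 1.27 and 0.690 in mural cells. Col1a1 to Col1a2 in FBs was 0.846 at 0 and 0.826 at 12 weeks, Col4a1 to Col4a2 was 1 and Col6a1 to Col6a2 1.19 at 2 weeks. Thinning reversed Col5a1 to Col5a2 in FBs at 12 weeks to 1.06 and Col18a1 in FBs at 2 weeks to 0.892. Without Dcn as a marker the fibrillar ratio in ECs at 2 weeks was 0.400, and with 90% of marker UMIs the basement membrane ratio in ECs at 2 weeks was 1.49.

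Chains past 2-fold higher in FBs at 2 weeks numbered between 10 and 16. Chains past the limit and lower at 2 weeks were 0 with at least 100 UMIs, 5 at 1.5-fold and 1 with 10 CPM added. At 12 weeks higher chains were 3 with no filter and 0 with 10 CPM added, and lower chains were 4 with at least 100 UMIs, 13 at 1.5-fold and 3 with 10 CPM added. Processing genes higher at 2 weeks were 13 at 1.5-fold and 3 with 10 CPM added. Lower processing genes at 2 weeks were 0 with at least 100 UMIs or 10 CPM added, 4 with no filter or at 1.5-fold, and 2 with median-of-ratios size factors, without cells above 10% mitochondrial UMIs or without Dcn. At 12 weeks higher processing genes were 0 with at least 100 UMIs and 2 at 1.5-fold, and lower ones 3 with no filter, 2 at 1.5-fold and 1 without Dcn. The 90 FBs at 2 weeks limit every value of a rare chain, since 3 UMIs there equal 11.8 CPM.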

Other observations

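The 227, 124 and 102 cells that no marker list claimed also held collagen UMIs and entered no comparison of classes. Fibrillar chains were at 690, 959 and 450 CPM in them, basement membrane chains at 901, 1283 and 415 CPM, and other chains at 478, 814 and 344 CPM.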
